A study of Mus musculus with 6 samples.

Results

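The linker and core histone genes are the 63 genes of 34187 in the count tables whose symbols name a clustered linker histone (H1f1 to H1f5, 5 genes) or a clustered core histone of the H2A (17 genes), H2B (17), H3 (12) or H4 (12) family. The rule that picks them reads the symbol and no measured value, the family itself was chosen with earlier results of these data known, and all 63 are accounted for below. Of these, 61 had at least 1 UMI (unique molecular identifier, a counted RNA molecule) in the cells used here, and H2bc23 and H3c14 had 0. Of the 90-base windows of H2bc23 and H3c14, 95.3% and 100% also occur in another gene, so their reads may have been lost between copies and the 0 sets no limit on their level.

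The study asked how tumors respond to IL10/2-Trikine, an engineered cytokine in which monomeric IL-10 is linked to a part that binds an IL-2 receptor chain, and to mono-IL10, the monomeric IL-10 alone. Male and female C57BL/6 mice, of an age not given for this experiment in the sources used here, carried subcutaneous tumors grown from 250000 6694c2vTRP1 cells, a line of the KPC pancreatic ductal adenocarcinoma model, and received PBS, mono-IL10 at 26 µg/mouse or IL10/2-Trikine at 30.6 µg/mouse in 2 intraperitoneal doses, every other day from day 8. Tumors were taken on day 14, CD45+ cells were enriched, each mouse was marked with a hashtag antibody, and the 5 mice of a group were pooled into 1 library of 5′ single-cell RNA sequencing. Every mouse carried the same tumor line, so the groups are PBS with tumor, mono-IL10 with tumor and IL10/2-Trikine with tumor, and none is free of tumor. Because each treatment is 1 library, treatment and library cannot be told apart.

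Core histones H2A, H2B, H3 and H4 form the nucleosome around which DNA is wound, and linker histone H1 binds where DNA enters and leaves it. Cells make most of these proteins while they copy their DNA, from many near-identical genes held in clusters, and replication-dependent histone mRNAs end in a short stem-loop instead of a poly(A) tail. The stem-loop is bound by a protein that guides cutting and later decay of the mRNA, while some members can also give longer transcripts that carry poly(A), the feature that the kit used here primes on. Counts are of 5′ ends, not divided by transcript length, and levels are therefore compared for 1 gene between cells rather than between genes.

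The stem-loop was searched in annotated mouse transcripts (GENCODE vM21) within 150 bases after the stop codon and was found in 42 of the 63 members. Another 13 had no 3′ UTR annotated, so they held no stretch to search and may still carry a stem-loop. The 3 commonest forms are shown because they mark the mRNA end that sets these genes apart, with the 4-base loop in capitals and the 2 arms of the stem in lower case.

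stem-loop in 24 members, among them H1f2, H1f3, H1f4 and H2ac8: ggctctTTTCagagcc
stem-loop in 6 H4 members, among them H4c4 and H4c8: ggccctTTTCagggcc
stem-loop in 5 members, among them H3c3 and H3c6: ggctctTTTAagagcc

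For 23 members at least 1 annotated transcript ran on by more than 100 bases past the stem-loop, or had a 3′ UTR of over 200 bases and no stem-loop. H1f2 transcripts ran on by up to 840 bases, H1f4 by 1153 and H4c4 by 770. H2bc4, an H2B gene, had no stem-loop in the searched stretch, and H1f5 had no 3′ UTR annotated. In 27 members at least 50% of all 90-base windows also occurred in another gene, so their counts may be split or lost between copies. H1f1 and H1f5 shared 0% of windows and H4c4 0.9%, whereas H2ac18 shared 88.5%, H3c15 62%, H2ac24 92.4%, H2ac10 66.5%, H2ac4 53.6%, H2bc7 50.8% and H3c6 50.2%, so the values of these 7 are uncertain.

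The promoters of 3 linker genes that behaved differently below, H1f5, H1f4 and H1f2, and of the H2A gene H2ac8 are shown over the 200 bases before the start (RefSeq, GRCm38.p6, each written 5′ to 3′ on the gene's strand). Capitals mark 4 motifs searched on both strands, namely the CCAAT box (CCAAT), the TATA box with the letters TATAAA, the H1 box with the letters AAACACA, and the octamer with the letters ATTTGCAT.

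H1f5 chr13:21780626-21780825, minus strand: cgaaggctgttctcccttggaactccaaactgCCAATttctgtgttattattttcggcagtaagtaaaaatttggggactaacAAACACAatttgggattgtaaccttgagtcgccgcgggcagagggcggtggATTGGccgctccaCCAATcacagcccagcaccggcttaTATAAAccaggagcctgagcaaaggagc
H1f4 chr13:23622559-23622758, minus strand: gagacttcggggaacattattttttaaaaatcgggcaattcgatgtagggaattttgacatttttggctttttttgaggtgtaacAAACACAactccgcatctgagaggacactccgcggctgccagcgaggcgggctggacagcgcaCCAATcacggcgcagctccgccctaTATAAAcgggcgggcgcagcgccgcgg
H1f2 chr13:23738607-23738806, plus strand: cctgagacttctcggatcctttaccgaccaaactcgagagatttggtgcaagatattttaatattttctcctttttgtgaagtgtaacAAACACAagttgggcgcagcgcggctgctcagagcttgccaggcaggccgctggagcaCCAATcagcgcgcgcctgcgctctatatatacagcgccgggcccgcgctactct
H2ac8 chr13:23571221-23571420, minus strand: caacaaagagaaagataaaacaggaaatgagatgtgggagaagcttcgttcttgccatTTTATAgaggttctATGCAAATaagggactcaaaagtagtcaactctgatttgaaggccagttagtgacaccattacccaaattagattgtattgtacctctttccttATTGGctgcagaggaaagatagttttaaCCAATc

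The 3 linker promoters each held the H1 box, 117 bases before the start in H1f5, 115 in H1f4 and 112 in H1f2, and a CCAAT 52 to 54 bases before it. TATAAA stood 28 bases before the start of H1f5 and 27 before that of H1f4 and was not among the letters shown for H1f2. Other forms of the TATA box were not searched, and the H1f2 letters hold the stretch tatatata near the start. H2ac8 held the octamer, 128 bases before the start, and no H1 box. Over the 250 bases before the start, 48 of 58 member promoters (57 members had an entry) held CCAAT, or 82.8% against 33.8% of 32851 promoters of all genes, while 3 of 11 H4 promoters (27.3%) did. The H1 box was in 4 of 5 linker promoters against 6.2% of all promoters, and the octamer in 7 of 15 H2B and 6 of 17 H2A promoters against 1.6%. These matches describe letters in a window and were not tied to any value below.

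The 3 libraries held 44412 (PBS), 30528 (mono-IL10) and 55504 (IL10/2-Trikine) cell barcodes. The authors' annotation named 516, 843 and 725 of them as T or NK cells, and other cells were clustered anew with histone and cell cycle genes left out. The macrophage or monocyte-like class (20159 cells, "macrophages" below) carried C1qa at 24 and Csf1r at 6.06 UMIs per 10000, and the tumor epithelial-like class (32872 cells, "tumor cells") carried Krt8 at 22 and Krt18 at 12.9, with Epcam at 0.239 and Cldn7 at 0.00185, close to absent for an epithelial label. Median UMIs per cell were lowest with IL10/2-Trikine in each class, at 2635 in T and NK cells, 2779 in macrophages and 9198 in tumor cells, and highest with mono-IL10, at 3959, 6186 and 29585. Between 408 and 700 barcodes occurred in each pair of libraries, and none was annotated in both libraries of a pair. Except for the levels in the authors' clusters, which pool all annotated cells, values below are sums per mouse over cells with a called hashtag, from 5 mice per group unless fewer are named, in UMIs per 1000000 UMIs of all genes (CPM), and tests used edgeR's quasi-likelihood test with Benjamini-Hochberg adjustment over all genes. In such sums, fewer cells in a given state and less RNA per cell cannot be told apart.

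The members together made up 0.1075% of UMIs in T and NK cells (1383 cells, 6076 member UMIs), 0.0473% in macrophages (19097 cells, 50043 UMIs) and 0.0596% in tumor cells (17437 cells, 233024 UMIs). In each population few genes carried most of the signal: the 8 leading members held 70.6%, 82.9% and 69.8% of the member UMIs. Of the 63 members, 24, 47 and 57 reached the 30 UMIs needed for a treatment test, while 7, 4 and 2 had no UMI at all in that population. The counts below refer to the members that reached 30 UMIs.

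Within mice, 38 of 57 tested members were higher in T and NK cells than in macrophages (20.9% of all 19463 genes were) and 4 were lower (31.9% of all genes were), with a member median log2 difference of 1.88 against −0.42 over all genes. H1f5, the gene for linker histone H1.5, was higher by 2.20 ± 0.28 (log2, SE, adjusted p = 8.99e-09), H1f4 (H1.4) by 1.85 ± 0.16 (adjusted p = 4.25e-13) and the H2A gene H2ac8 by 2.50 ± 0.23 (adjusted p = 1.54e-12). H1f2, the gene for linker histone H1.2, went the other way and was lower in T and NK cells by 1.43 ± 0.13 (log2 difference −1.43, adjusted p = 4.29e-12), as was H2bc4 (−1.50 ± 0.18, adjusted p = 1.82e-09). The other 2 lower members were H2bc21 (−1.14) and H3c15, which had 0 UMIs in T and NK cells and 172 in macrophages, at least 3.07-fold higher there when set against 3 UMIs over all T and NK cells.

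Tumor cells against macrophages gave 38 higher members (47.6% of all genes were higher) and 8 lower (37.8% of all genes), with a member median of 0.99 against 0.20. H1f1 (H1.1) was higher in tumor cells by 1.82 ± 0.17, H2ac8 by 1.60 ± 0.18 and H1f5 by 1.30 ± 0.21, and H1f2 was again lower (−1.24 ± 0.10, adjusted p = 7.89e-15). H1f2 was thus higher in macrophages than in either other population, and each of the other 4 linker genes was lower there than in both.

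Among the clusters the authors named, H1f5 stood at 501 CPM in Cycling_T (95% Poisson interval 468 to 535), 320 in Cycling_Treg (248 to 407) and 224 in Cycling_NK (176 to 282). Outside these clusters it stood between 0 and 10.6 CPM, with 3.66 in NK and 10.6 in naive_CD8T, and with 0 UMIs in naive_T, Th17/ILCs and ISG+CD8T, clusters of 16 to 25 cells whose intervals reach 67.5 to 72.7 CPM. H2ac8 followed the same order, at 651, 387 and 276 CPM in the cycling clusters and 14.3 in NK. H1f4 differed less between clusters, at 399 CPM in Cycling_T, 65.3 in NK and 34.7 in naive_CD8T. The levels pool cells of all 3 groups, in shares that differ by cluster: of the cells with a called mouse, Cycling_NK held 3 from PBS, 9 from mono-IL10 and 30 from IL10/2-Trikine, and naive_CD8T held 31, 121 and 2. The authors may also have used histone genes when they clustered, so these levels describe the clusters and were not tested, and the intervals cover counting error only.

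H1f2 was present in cycling and other clusters alike, at 120 CPM in Cycling_T (105 to 138), 106 in NK (94.9 to 119) and 45.2 in naive_CD8T. H2bc4 was at 29.2 CPM in Cycling_T, 35 in NK and 35.8 in Treg. In cells thinned to 2000 UMIs, 49.2% of Cycling_T cells (61.9% of all 349 before thinning, median 4095 UMIs) had an H1f5 UMI against 3.13% of naive_CD8T cells (3.5% of 200 before thinning, median 3048 UMIs). Whether the UMIs in naive_CD8T cells came from free RNA or from the cells themselves was not tested. H1f2 was seen in 17.5% of thinned Cycling_T cells (37% before thinning) and 14.3% of thinned NK cells (22.1%).

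**Figure D1:**
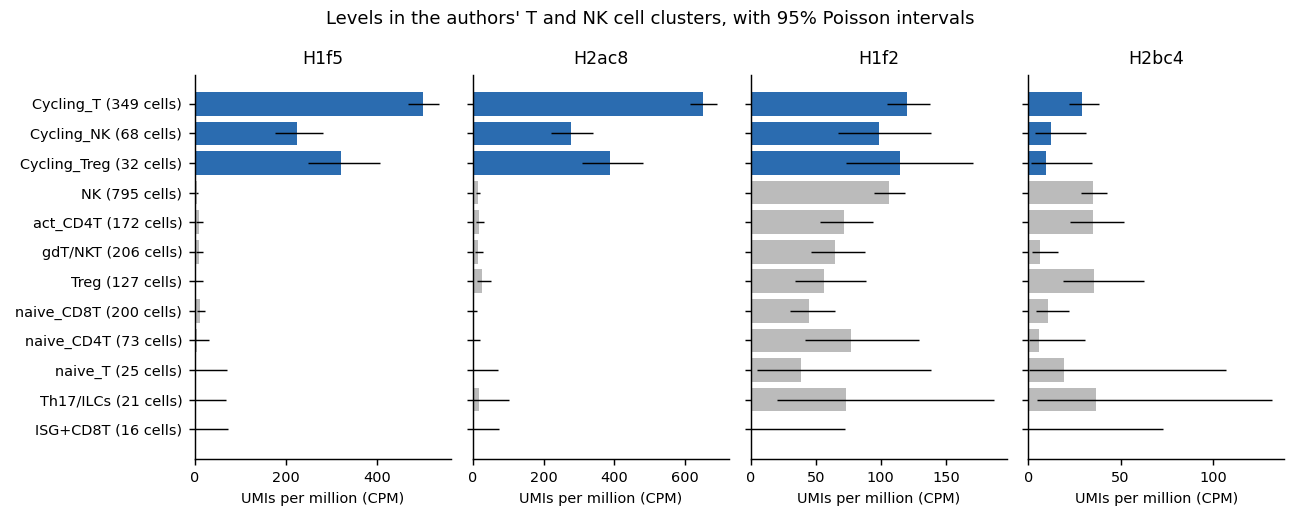
Levels of 4 members (panels) in the 12 T and NK cell clusters named by the authors, as summed CPM with 95% Poisson intervals (counting error only); blue bars are the cycling clusters and the x axes differ between panels. H1f5 and H2ac8 sit above 200 CPM in the 3 cycling clusters and below 30 elsewhere, while the bars of H1f2 and H2bc4 overlap between cycling and other clusters.

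To describe the same contrast without cluster names, the cells of each mouse were ranked by the share of their UMIs from fixed S phase and G2 and M phase gene lists, which hold no member, and cut into 4 equal parts. In tumor cells, H1f5 rose over the parts from 1.47 to 3.38, 54.9 and 131 CPM (mean over 15 mice), H1f4 from 7.43 to 10.8, 52.5 and 129, and H2ac8 from 3.81 to 6.04, 68.9 and 178. H1f2 went from 63.6 to 59.4, 67.3 and 82.6 CPM, so that the lowest part already held a high level. H2bc4 went from 53.9 to 50.7, 45.4 and 41.9 CPM, the reverse order.

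Macrophages put nearly all of this difference into the highest part: H1f5 was at 1.97, 1.46 and 2.01 CPM in the lower 3 parts and at 83 in the highest. Macrophage H1f2 was at 164, 175, 186 and 187 CPM, and H2bc4 at 60.5, 59.4, 55 and 58.7. In T and NK cells (14 mice) H1f5 was at 0.952, 6.4, 34.7 and 436 CPM and H1f2 at 69.1, 95.8, 49.3 and 93.5. Parts were drawn on transcripts of cycling cells and are given as a description with no test.

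**Figure D2:**
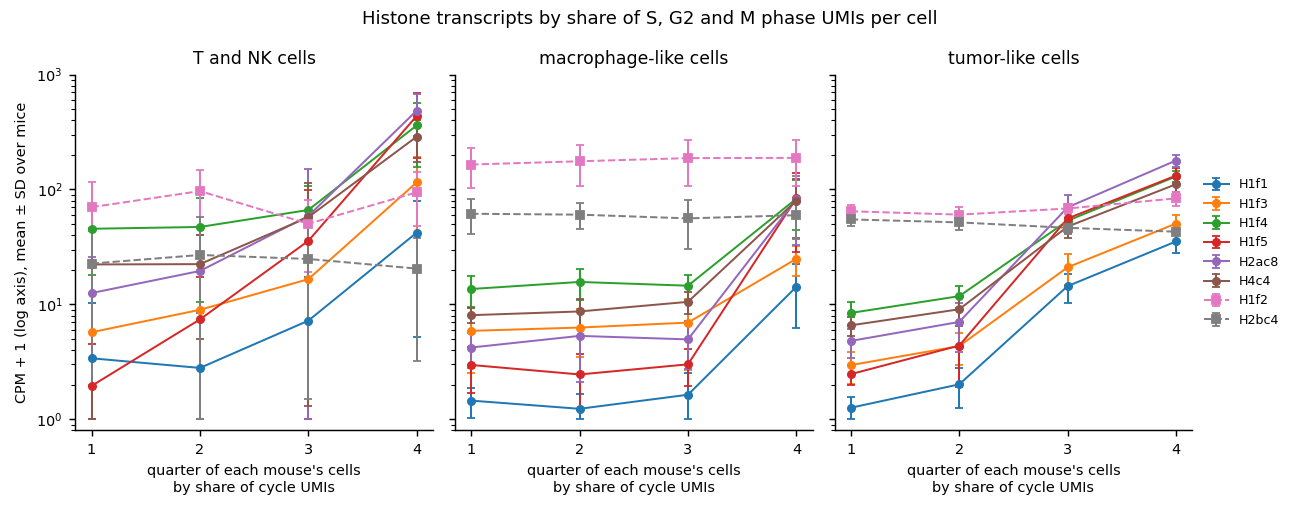
Mean CPM + 1 (log axis) with SD over mice for 8 members in T and NK cells (14 mice), macrophages and tumor cells (15 mice each), in 4 equal parts of each mouse's cells by their share of S, G2 and M phase UMIs (lowest part at 1); error bars that would pass below 0 CPM stop at the axis floor. Solid lines (H1f1, H1f3, H1f4, H1f5, H2ac8, H4c4) climb to the highest part, and the dashed lines of H1f2 and H2bc4 show no climb of that size.

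Over the 52 members with enough UMIs for a ratio in tumor cells, the level in the highest part was a median of 10.9 times that in the lowest. The family medians were 25.1 for H1, 29.6 for H2A, 13 for H2B, 9.05 for H3 and 6.53 for H4. H1f1 had a ratio of 161, the H2A genes H2ac24 and H2ac10 126 and 122, and H1f5 90.2. These rest on 17, 19, 4 and 116 UMIs in the lowest part, so the order of the first 3 is not settled.

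At the other end, 8 of the 52 had a ratio under 2, namely H2bc6 (1.87), H2bc21 (1.86), H3c15 (1.68), H1f2 (1.30), H4c1 (1.05), H2ac18 (1), H2bc4 (0.788) and H4c8 (0.525). Of the 20 members with a long annotated 3′ end as defined above, which for H2bc4 and H2bc21 is a long 3′ UTR with no stem-loop found, 6 had a ratio under 2 and the median was 6.06. Of the other 32, 2 had a ratio under 2 and the median was 11.7. Some of these 32, H1f5, H2bc18 and H2ac15 among them, had no 3′ UTR annotated, so a long end could not be seen. Members with such an end and a high ratio included H2ac8 (48), H1f3 (25.1), H4c4 (20.4) and H1f4 (17.3).

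**Figure D3:**
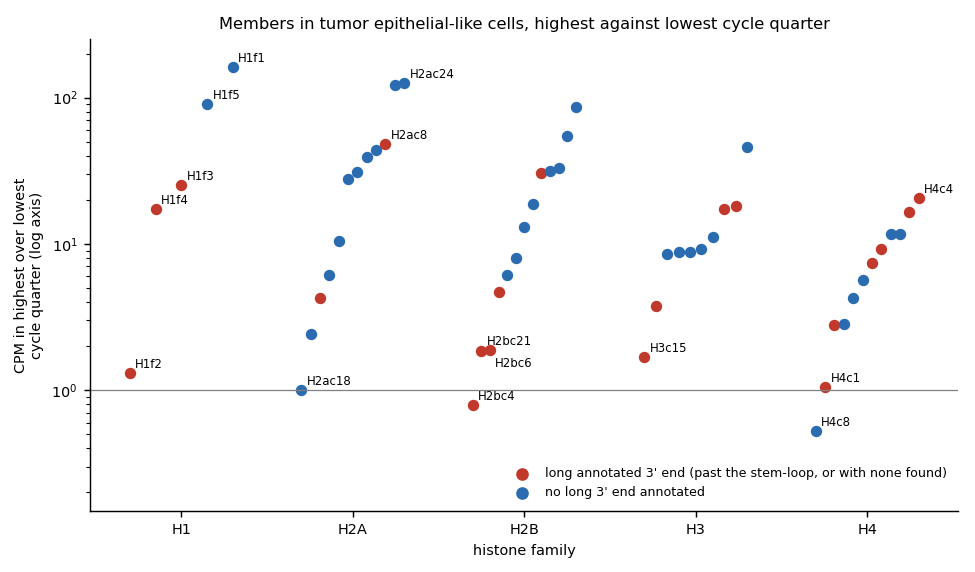
Ratio of the level in the highest to the lowest of 4 parts of tumor cells by cycle transcripts (log axis, 1 point per member, 52 members, spread within each family by rank), for families H1, H2A, H2B, H3 and H4. Red points have a long annotated 3′ end (past the stem-loop or, for H2bc4 and H2bc21, with no stem-loop found) and blue points do not, some of them with no 3′ UTR annotated. Of the points, 8 lie under 2, 6 of them red.

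Within the highest part of tumor cells, a further split into 3 equal groups by the S phase share of the cycle UMIs gave H1f5 at 76.3, 134 and 180 CPM from the lowest to the highest S share. H1f2 stood at 83.8, 84.1 and 79.8 CPM and H2bc4 at 51, 41.4 and 33.7 over the same groups. A fixed cut on the same share over all tumor cells, not those of the highest part alone, left only 67 cells in an S-list class (at least 2 in 3 of the cycle UMIs from the S list), of which 55 in 4 mice, all given IL10/2-Trikine, entered a test against 5628 cells of a G2/M-list class. In it 9 of 46 members tested were lower in the S-list class (2.82% of all genes were). H1f5 had 1 UMI in the S-list class and 3858 in the other, H1f4 2 and 4175, H4c4 3 and 3456, and H1f2 12 and 4922 (log2 difference −1.51 ± 0.39, adjusted p = 0.00628). H2ac8, H2ac4, H2ac20, H1f3 and H2bc18 had 0 UMIs in the S-list class, which allows up to 8.32 CPM at its 360675 UMIs. H1f5 at 2.77 CPM in this class compares with 1.47 CPM in the lowest of the 4 parts and 180 in the S-rich group of the highest. H2bc4 had 22 and 3702 UMIs (61 and 57.1 CPM; log2 difference −0.26, adjusted p = 0.859). Members reached the 30 UMIs mostly through the G2/M-list class and the S-list class is small, so the count of 9 is a description of these cells, and which cycle phase they were in was not tested.

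Treatment was compared next in T and NK cells. IL10/2-Trikine mice had more H1f5 and H1f4 RNA in these cells than PBS mice, with no overlap between the mice, and more H2ac8. H1f2 did not follow: its level with IL10/2-Trikine was close to that with PBS and below that of each mono-IL10 mouse. H1f5 stood at 81.6, 79.6, 40.9, 92 and 77.2 CPM in the PBS mice, 101.5, 121, 43.8, 155 and 123 in the mono-IL10 mice and 309, 225, 249.5, 191 and 108 in the IL10/2-Trikine mice. Every IL10/2-Trikine mouse was above every PBS mouse, and 1 overlapped with the mono-IL10 mice. The log2 difference was 1.5 ± 0.25 against PBS (adjusted p = 0.000323) and 0.81 ± 0.21 against mono-IL10 (adjusted p = 0.0193). The second was lost without mono-IL10 mouse 1 (adjusted p = 0.0693), IL10/2-Trikine mouse 1 (0.123) or IL10/2-Trikine mouse 2 (0.0855). It was also lost with thinned sums (0.105), in which each mouse's summed counts are drawn down to the lowest total of any mouse.

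H1f4 stood at 102, 105, 61.4, 82 and 96.5 CPM with PBS, at 139, 144, 136, 142 and 148 with mono-IL10 and at 271, 199, 169, 218 and 134 with IL10/2-Trikine. Both treated groups lay wholly above PBS. The log2 difference from PBS was 1.17 ± 0.18 with IL10/2-Trikine (adjusted p = 8.96e-05) and 0.76 ± 0.17 with mono-IL10 (adjusted p = 0.0222), and the difference between the treated groups was 0.41 (adjusted p = 0.124). The mono-IL10 call was lost without PBS mouse 3 (adjusted p = 0.102), PBS mouse 4 (0.0857), mono-IL10 mouse 1 (0.0597) or mono-IL10 mouse 5 (0.0556), and without cells that held a tumor marker UMI (0.0845, at the same log2 difference of 0.76).

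H2ac8 stood at 96.9, 109, 135, 94.4 and 96.5 CPM with PBS, at 165, 208.5, 160.5, 199 and 202.5 with mono-IL10 and at 285.5, 274, 225, 191 and 98 with IL10/2-Trikine. The mono-IL10 mice were all above the PBS mice, and 4 of 5 IL10/2-Trikine mice were. The log2 difference from PBS was 1.03 ± 0.20 with IL10/2-Trikine (adjusted p = 0.00216) and 0.90 ± 0.19 with mono-IL10 (adjusted p = 0.0149). The mono-IL10 call was lost without PBS mouse 4 (0.0589) or mono-IL10 mouse 5 (0.05004) and with thinned sums (0.198).

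H1f2 stood at 61.2, 79.6, 32.7, 92 and 77.2 CPM with PBS, at 109.5, 91.1, 77.8, 93.7 and 132 with mono-IL10 and at 74.9, 75.1, 64.4, 34 and 68.6 with IL10/2-Trikine. The IL10/2-Trikine mice were all below the mono-IL10 mice and within the range of the PBS mice. No difference passed the test: the log2 value was −0.68 ± 0.22 for IL10/2-Trikine against mono-IL10 (adjusted p = 0.075), −0.06 ± 0.26 against PBS (0.953) and 0.62 for mono-IL10 against PBS (0.201). Between the treated groups H1f5 and H1f2 thus had log2 differences of opposite sign, and of these 2 genes H1f5 passed.

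Of the 24 members tested in T and NK cells, 3 were higher with IL10/2-Trikine than with PBS (2.15% of all 9305 genes were), 1 was higher with IL10/2-Trikine than with mono-IL10 (1.68% of all genes), and 2 were higher with mono-IL10 than with PBS (0.355% of all genes). No member was lower in any of these. The member medians of the log2 difference were 1.05, 0.11 and 0.96, against 0.00, −0.01 and 0.01 over all genes, in comparisons that share mice. Among members short of the threshold, H1f1 gave 1.89 (adjusted p = 0.0755), H1f3 1.18 (0.0804) and the H2A gene H2ac24 1.09 (0.069) for IL10/2-Trikine against PBS, H4c4 gave 0.64 (0.124) and H2bc4 −0.40 (0.776). H1f1 rested on 7 UMIs in the PBS mice. The family sum of linker genes was 261 ± 61 CPM (SD, n = 5) with PBS, 409 ± 66.6 with mono-IL10 and 556 ± 158 with IL10/2-Trikine.

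The share of cycling cells differed along with the comparison of IL10/2-Trikine with PBS, and hardly along with that of mono-IL10 with PBS. The cycling clusters held 17.2 ± 2.36% of the annotated cells per mouse with PBS, 17.9 ± 3.74% with mono-IL10 and 34.9 ± 6.01% with IL10/2-Trikine (SD, n = 5 each). Other clusters differed too: over the cells of all mice, NK made up 27.6% with PBS, 28.3% with mono-IL10 and 47.3% with IL10/2-Trikine, and naive_CD8T, a cluster with lower H1f2 and H1f4 than NK, 8.91%, 19.1% and 0.5%. The part of this makeup in the H1f2 and H1f4 values was not tested. Of 36 S phase list genes tested, 11 were higher with IL10/2-Trikine than with PBS and 0 differed between mono-IL10 and PBS by edgeR (4 at an unadjusted p under 0.05). Within the cycling clusters the S phase list summed to 3199 ± 485 CPM with PBS (SD, n = 3), 3892 ± 253 with mono-IL10 (n = 4) and 4666 ± 207 with IL10/2-Trikine (n = 5). The G2 and M phase list there summed to 13350, 11450 and 11780 CPM in the same order. In the cells of each mouse at or below its median share of cycle UMIs, chosen after seeing the data, 0 of 6 members tested passed by edgeR in any comparison (1.49%, 1.12% and 0.386% of all genes did for IL10/2-Trikine against PBS, against mono-IL10, and mono-IL10 against PBS), with 0, 4 and 2 at an unadjusted p under 0.05. No share of all genes was counted at the unadjusted level. In these low-cycle cells H1f4 gave −0.01 (adjusted p = 0.998) and H2ac8 0.29 (0.945) for IL10/2-Trikine against PBS, H1f4 1.05 (0.376) and H2ac8 0.36 (0.954) for mono-IL10 against PBS, and H1f5 was too low to test. Whether these differ from the values in all T and NK cells was not tested. Summed tumor markers in T and NK cells were also higher with IL10/2-Trikine (56.2 ± 19.4 CPM) than with PBS (42.4 ± 13.8) or mono-IL10 (30.5 ± 9.44), and their part in the histone values was not tested.

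**Figure D4:**
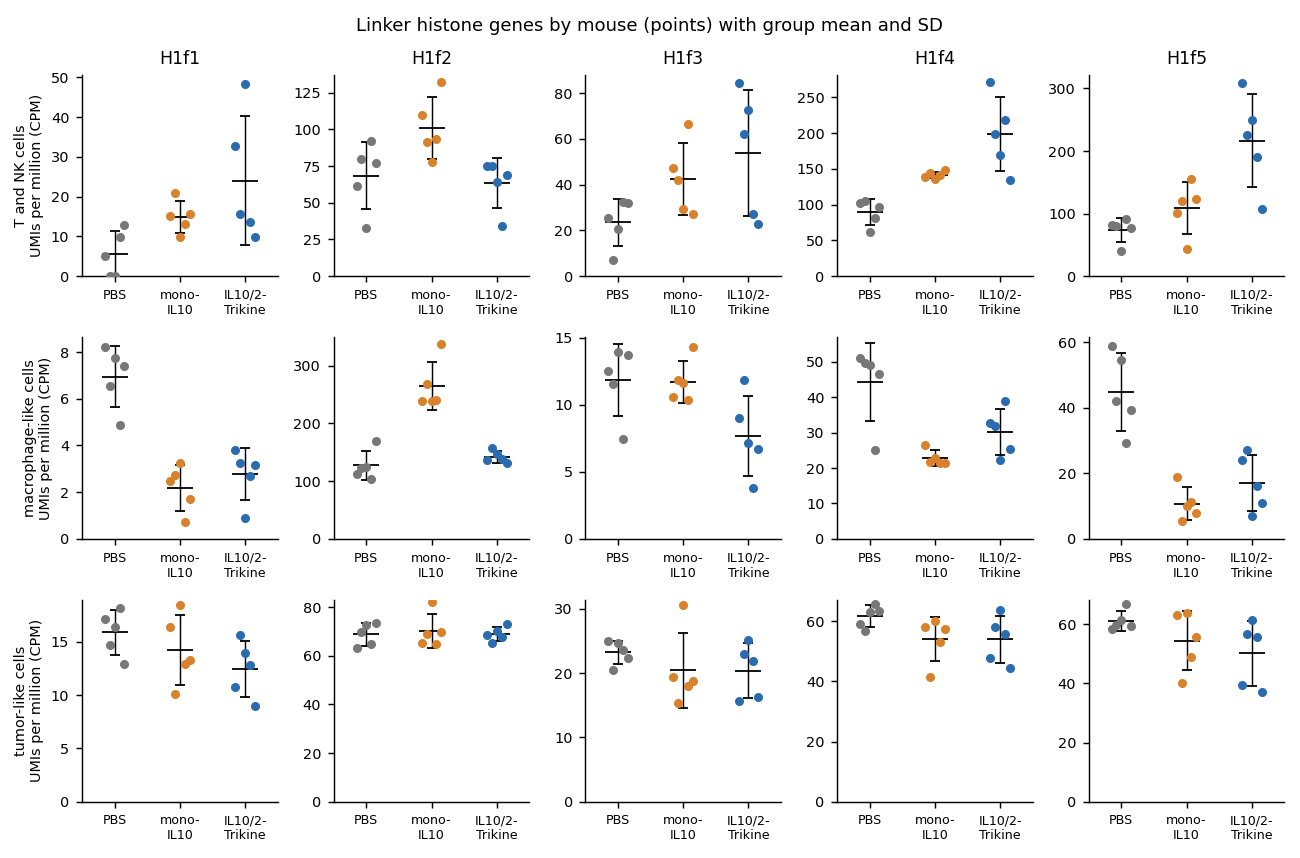
Level of the 5 linker histone genes (columns) in T and NK cells, macrophages and tumor cells (rows), in CPM; each point is 1 mouse (5 per group), with group mean and SD as bars, and y axes start at 0 and differ between panels. In T and NK cells the 5 IL10/2-Trikine mice lie above the PBS mice for H1f4 and H1f5 but not for H1f2, and in macrophages the mono-IL10 mice lie above the PBS mice for H1f2 and below them for H1f1 and H1f5.

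Split by the authors' clusters, the T and NK cells held too few UMIs to follow most members. In NK cells (14 mice, 456 cells) 4 members could be tested and 0 passed by edgeR for IL10/2-Trikine against PBS (0.513% of all genes passed), IL10/2-Trikine against mono-IL10 (0.24%) and mono-IL10 against PBS (0.272%), with 0, 3 and 2 at an unadjusted p under 0.05 and 0 by DESeq2. No share of all genes was counted at that unadjusted level. NK cell H1f2 stood at 118, 95.6, 50.8, 77.7 and 87.9 CPM with PBS, at 196.5, 81.6, 57.9 and 163 with mono-IL10 and at 38.7, 63.1, 68.4, 11.9 and 64.3 with IL10/2-Trikine. Its log2 difference between the treated groups was −1.38 ± 0.36 (adjusted p = 0.0851) and 3 of 5 IL10/2-Trikine mice overlapped with the mono-IL10 mice.

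In T cells outside the cycling clusters (13 mice, 598 cells, with 3 IL10/2-Trikine mice) 0 of 5 members passed by edgeR or DESeq2 (0.985%, 1.84% and 0.373% of all genes passed in the same order of comparisons), with 0, 0 and 2 at an unadjusted p under 0.05. In the cycling clusters (12 mice, 285 cells, with 3 PBS mice) 0 of 20 members passed by edgeR (0.633%, 1.74% and 0.178% of all genes), with 6, 3 and 12 at an unadjusted p under 0.05, and 1 member by DESeq2 for IL10/2-Trikine against PBS. The percents are at the adjusted level, and no share of all genes was counted at the unadjusted one. Cycling-cluster H1f4 stood at 197, 156 and 276 CPM with PBS and at 636.5, 429, 290, 564 and 294 with IL10/2-Trikine, all higher, with a log2 difference of 1.06 ± 0.28 (adjusted p = 0.0637). H1f5 in the same cells gave 0.99 ± 0.32 (adjusted p = 0.198). The 4 mono-IL10 mice lay wholly above the 3 PBS mice for H1f1, H1f4, H2ac8, H2ac20, H2bc4, H2bc11 and H3c3. How many of all genes lay apart in this way was not counted, so the list is a description. The log2 differences were 0.76 for H1f4 (adjusted p = 0.479), 0.85 for H2ac8 (0.203) and 2.82 for H3c3 (0.071). H1f1, H2bc4, H2bc11 and H3c3 had at most 3 UMIs in each of these PBS mice. The median over the 20 members was 0.63 for IL10/2-Trikine against PBS and 0.94 for mono-IL10 against PBS, beside 0.02 and 0.05 over all genes tested. In the same cells the S phase list had medians of 0.55 and 0.44 (33 genes tested), and the G2 and M phase list −0.24 and −0.14 (50 genes). The part of cycle stage in the member values was not tested.

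In macrophages the linker family split. With mono-IL10, H1f2 and H2bc4 rose and H1f5, H1f1, H1f4, H2ac8 and H4c4 fell, each against PBS. H1f2 stood at 113, 124, 125, 104 and 170.1 CPM with PBS, at 239.5, 268, 239.6, 241 and 337.5 with mono-IL10 and at 136, 158, 148, 139 and 131 with IL10/2-Trikine. Every mono-IL10 mouse was above every mouse of the other groups. The log2 difference was 1.14 ± 0.11 for mono-IL10 against PBS (adjusted p = 2.89e-07) and −1.01 ± 0.11 for IL10/2-Trikine against mono-IL10 (adjusted p = 2.11e-05), and 0.13 for IL10/2-Trikine against PBS (0.526). The makeup of the macrophage class differed between groups: its 14 clusters drew from 9.31 to 80.1% of their cells from PBS, 11.8 to 73.9% from mono-IL10 and 6.64 to 59% from IL10/2-Trikine. Clusters 21, 30 and 58 held the highest PBS shares (71.1 to 80.1%), cluster 14 the highest mono-IL10 share (73.9%), and clusters 36 and 46 the highest IL10/2-Trikine shares (59 and 58.6%). Within clusters, H1f2 was higher with mono-IL10 than with PBS in 14 of 14 and H2bc4 in 13 of 14, and H4c4 was lower in 13 of 14. The clusters share their mice and libraries and are not separate repeats. How many of all genes behaved in this way was not counted, and the part of cluster makeup was not tested.

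Macrophage H1f5 stood at 58.9, 42.1, 54.5, 29.4 and 39.3 CPM with PBS, at 18.8, 5.51, 10, 11.4 and 7.98 with mono-IL10 and at 24.3, 27.2, 7.13, 16.2 and 11.1 with IL10/2-Trikine. Both treated groups were wholly below PBS. The log2 difference from PBS was −1.90 ± 0.25 with mono-IL10 (adjusted p = 1.53e-05) and −1.22 ± 0.27 with IL10/2-Trikine (adjusted p = 0.00451), the latter lost in cells with at least 2000 genes detected (−0.31, adjusted p = 0.543). H1f5 was lower with mono-IL10 in 14 of 14 macrophage clusters, and with IL10/2-Trikine in 9 of 12. In cluster 1 the mono-IL10 gap was slight (2.57 against 2.65 CPM with PBS). The PBS level of H1f5 ran from 2.65 to 89.7 CPM between clusters.

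The H2B gene H2bc4 sided with H1f2. It stood at 36.4, 39.4, 44.2, 30.6 and 60.7 CPM with PBS, at 78.4, 73.5, 73.8, 65.6 and 94.6 with mono-IL10 and at 57, 54.3, 69.5, 55 and 41.2 with IL10/2-Trikine. The mono-IL10 mice were all above the PBS mice, with a log2 difference of 0.95 ± 0.13 (adjusted p = 2.74e-05), and IL10/2-Trikine was below mono-IL10 by a log2 difference of −0.62 ± 0.14 (adjusted p = 0.00925).

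The H4 gene H4c4 sided with H1f5, at 46.6, 45.4, 44.1, 29.4 and 51.3 CPM with PBS, at 27.1, 15.3, 18.5, 17.2 and 16.8 with mono-IL10 and at 28.9, 22.6, 12.5, 22.1 and 16.2 with IL10/2-Trikine. Its differences from PBS were −1.08 ± 0.16 (adjusted p = 7.42e-05) and −0.99 ± 0.19 (adjusted p = 0.00104), with no overlap in either, and the second was lost in cells with at least 2000 genes (−0.27, adjusted p = 0.476). H2ac8 fell likewise, from 41.9 ± 11.4 CPM (SD, n = 5) to 14 ± 5.03 with mono-IL10 (log2 difference −1.44 ± 0.25, adjusted p = 0.000296) and 19.6 ± 10.9 with IL10/2-Trikine (−0.92 ± 0.27, adjusted p = 0.0289), the latter lost in cells with at least 2000 genes (−0.09, adjusted p = 0.905). H1f1 and H1f4 fell by 1.53 and 0.87 on the log2 scale with mono-IL10, and H1f3, at 11.8, 11.7 and 7.69 CPM on average in the 3 groups, passed in no comparison.

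Of the 47 members tested for mono-IL10 against PBS, 5 were higher (10.3% of all 15267 genes were) and 15 lower (9.88% of all genes), with a member median of −0.73 against −0.01. The 5 were H1f2, H2bc4, H3c15 (1.01), H2ac18 (0.85) and H4c9 (0.52). The core genes lower beside H4c4 and H2ac8 ran from H3c6 (−0.82) and H2ac20 (−1.01) through H2ac15 (−1.14), H2bc11 (−1.14), H2bc18 (−1.19), H3c3 (−1.27) and H2ac24 (−1.29) to H2ac4 (−1.76), H3c8 (−1.96) and H2bc14 (−2.30). H3c8 and H2bc14 rested on 6 and 7 UMIs in the mono-IL10 mice, of 43 and 68 in the macrophages of all mice. Both passed the filter on UMIs mainly through the PBS mice, the group in which they were high. Their place among the 15 lower members is therefore uncertain. With thinned sums, which cut macrophage totals of up to 13779755 UMIs per mouse to 1122694, 12 of the 20 passed. H2bc11, H2bc14 and H3c8 then had too few UMIs to test. The 5 that lost their calls were H2bc18 (−0.49, adjusted p = 0.685), H2ac18 (0.60, 0.546), H2ac24 (−1.10, 0.224), H3c15 (1.73, 0.139) and H3c3 (−1.34, 0.136). H2ac18 also lost its call without PBS mouse 1 (adjusted p = 0.0641) or mono-IL10 mouse 3 (0.0566), H2bc11 without PBS mouse 2 (0.0668), H3c8 without PBS mouse 1 or 2 or mono-IL10 mouse 3 (0.0512 to 0.0694), and H3c6 without PBS mouse 2 or 5 or mono-IL10 mouse 2, 4 or 5 (0.0581 to 0.0782). In cells with at least 2000 genes detected the same comparison gave 5 higher (10.4% of all genes) and 19 lower (10% of all genes).

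For IL10/2-Trikine against PBS, 0 members were higher and 9 were lower (7.19% of all genes were lower), with a median of −0.51 against −0.01. Beside H1f5, H4c4 and H2ac8 these were H1f1 (−1.16), H3c3 (−1.27), H2ac4 (−1.05), H2ac20 (−0.84), H1f4 (−0.55) and H2bc7 (−2.76). H2bc7 had 23, 7 and 1 UMIs in the PBS, mono-IL10 and IL10/2-Trikine mice, just past the 30 needed, so it could pass the filter only with its PBS counts. In cells with at least 2000 genes detected none of the 8 of these that could still be tested passed, H1f4 giving 0.07 (adjusted p = 0.893) and H1f1 −0.31 (0.647), and 1 of 41 members, H4c8, was lower (5.15% of all genes were). With thinned sums H1f4 (adjusted p = 0.275), H2ac20 (0.086) and H3c3 (0.26) lost their calls. Single mice also decided 4 of these calls. H1f4 lost its call without PBS mouse 1, 2, 3 or 5 or IL10/2-Trikine mouse 2, 3 or 5 (adjusted p = 0.0506 to 0.0712). H2ac8 and H2ac20 lost theirs without PBS mouse 1, 2, 3 or 5 or IL10/2-Trikine mouse 2 or 5 (adjusted p = 0.0507 to 0.0782 and 0.0627 to 0.109). H2bc7 lost its call without mono-IL10 mouse 4 or 5 or IL10/2-Trikine mouse 1, 3, 4 or 5 (adjusted p = 0.0545 to 0.209), and with RLE factors (0.0506), no filter (0.0732) or another clustering (0.0784), and DESeq2 gave it no adjusted p. H2ac8 also lost its call with DESeq2 (0.0511) and H2ac20 without cells holding a tumor marker UMI (0.0601).

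For IL10/2-Trikine against mono-IL10, 1 member was higher, H2bc14 (2.30, adjusted p = 0.0425, on 17 against 7 UMIs; 3.9% of all genes were higher), and 3 were lower, H1f2, H4c9 (−0.68) and H2bc4 (5.94% of all genes were lower). The H2bc14 call was lost without PBS mouse 5, mono-IL10 mouse 1, 3, 4 or 5, or IL10/2-Trikine mouse 1, 2 or 5 (adjusted p = 0.0503 to 0.243), without cells holding a tumor marker UMI (1.82, 0.131) and under another clustering (1.68, 0.0863). In cells with at least 2000 genes, 11 members were higher (6.88% of all genes), among them H1f5 (1.76), H2ac8 (1.52) and H1f4 (1.17). The 3 lower ones (9.59% of all genes) were H1f2 (−1.08), H2bc4 (−0.90) and H4c8 (−1.75). Median UMIs per macrophage were 4912 with PBS, 6186 with mono-IL10 and 2779 with IL10/2-Trikine. This cut, here and in the comparisons with PBS, can therefore keep unequal shares of the groups, and the part of that in its results was not tested.

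**Figure D5:**
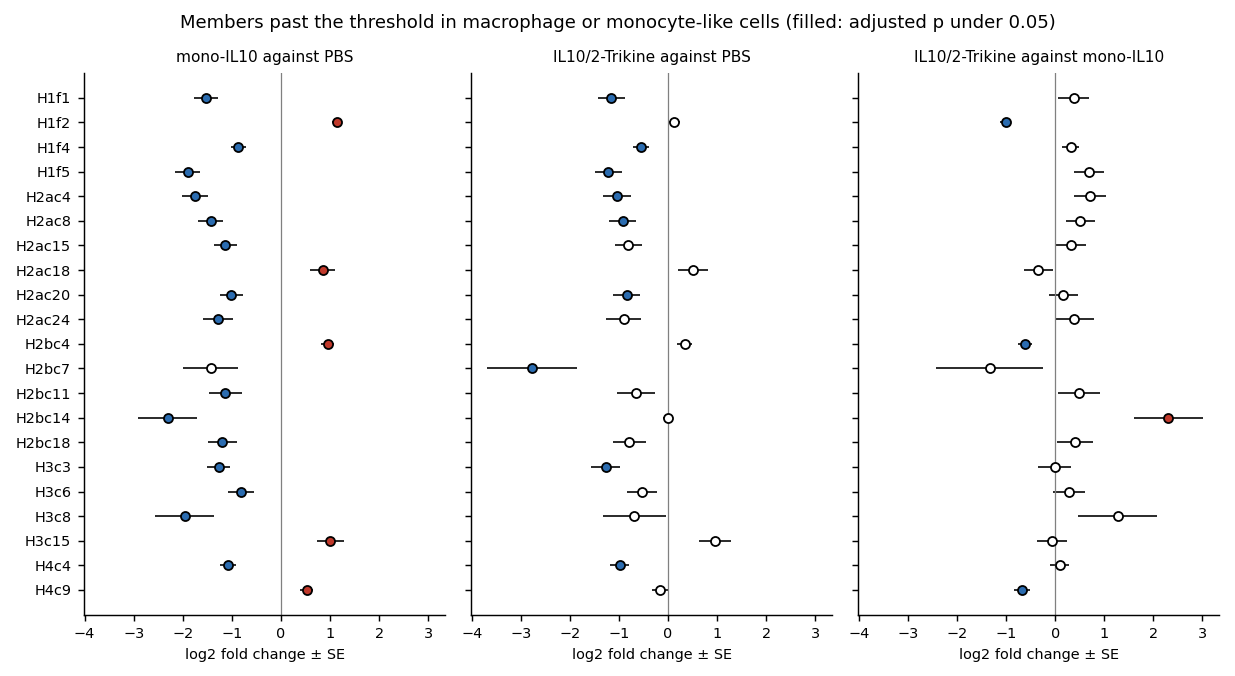
Log2 fold change with SE (edgeR; no bar is drawn where no SE could be had) of the 21 members past the threshold in at least 1 comparison in macrophages, for mono-IL10 against PBS, IL10/2-Trikine against PBS and IL10/2-Trikine against mono-IL10; filled points have an adjusted p under 0.05, red higher and blue lower. In the mono-IL10 panel 5 filled points, H1f2 and H2bc4 among them, lie right of 0 and 15, H1f5 among them, lie left of it.

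Cycle transcripts were also lower in treated macrophages, and their part in the histone values was not tested. The S phase list summed to 861 ± 124 CPM (SD, n = 5) with PBS, 511 ± 50.5 with mono-IL10 and 617 ± 107 with IL10/2-Trikine in macrophages, and 31 of 38 S phase genes and 45 of 52 G2 and M phase genes were lower with mono-IL10 than with PBS. The cells of each mouse at or below its median share of cycle UMIs were compared too, a subset chosen after seeing the data. In them 5 members were higher with mono-IL10 than with PBS (7.84% of all genes were) and 0 lower. The 5 were H1f2 (1.03, adjusted p = 1.51e-06), H2bc4 (0.82), H4c9 (0.72), H2ac18 (0.88) and H1f3 (1.22). In all macrophages H1f2 and H2bc4 gave 1.14 and 0.95, and the values of the 2 sets of cells were not tested against each other. H1f5 in the low-cycle cells gave −0.58 (adjusted p = 0.393). It had 47 UMIs in the lowest of the 4 parts, so a fall of H1f5 could hardly be seen in those cells. For IL10/2-Trikine against PBS these cells gave 2 higher members (5.01% of all genes), H3c15 (1.43) and H2bc4 (0.55), and against mono-IL10 2 lower (3.74% of all genes), H1f2 (−0.96) and H1f3 (−1.17). Summed tumor markers in macrophages stood at 53.7 ± 17.7, 35 ± 7.25 and 74.8 ± 17.7 CPM in the PBS, mono-IL10 and IL10/2-Trikine mice, and their part in these values was not tested.

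Tumor cells gave small differences in spite of the largest counts. H1f5 stood at 58.5, 59.7, 61.4, 66.7 and 59.5 CPM with PBS, at 63.2, 40.2, 63.7, 49 and 55.8 with mono-IL10 and at 39.6, 56.8, 61.6, 55.8 and 37 with IL10/2-Trikine. H1f2 stood between 63.1 and 73.5 CPM with PBS, 64.9 and 82 with mono-IL10 and 65.2 and 72.9 with IL10/2-Trikine. The groups overlapped for all 5 linker genes, and none passed the test. The log2 difference of IL10/2-Trikine from PBS was −0.24 for H1f5 (adjusted p = 0.237) and 0.03 for H1f2.

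Of the 57 members tested in tumor cells, 2 were higher with IL10/2-Trikine than with PBS (7.48% of all 18045 genes were), 1 was higher than with mono-IL10 (12.6% of all genes), and 1 was higher with mono-IL10 than with PBS (3.23% of all genes). These were H2bc4 (0.27 ± 0.07, adjusted p = 0.0111) and H2bc21 (0.51 ± 0.17, adjusted p = 0.0485) against PBS, H2bc21 against mono-IL10 (0.52 ± 0.17, adjusted p = 0.0298), and H4c9 (0.49 ± 0.09, adjusted p = 0.00535) for mono-IL10 against PBS. All 4 calls were lost in cells low in cycle transcripts, H2bc4 (0.18, adjusted p = 0.212), H2bc21 (0.24, 0.703, and 0.57, 0.225) and H4c9 (0.59, 0.0985). The mono-IL10 mice had H4c9 at 23.8, 21.7, 20.1, 19.9 and 22.3 CPM and the PBS mice at 14.5, 15.9, 16.4, 19.7 and 16.6, with no overlap. H2bc21 stood at 1.65, 1.33, 2.32, 2.32 and 1.92 CPM with PBS, at 1.39, 1.5, 1.62, 1.95 and 2.15 with mono-IL10 and at 2.43, 2.53, 3.40, 2.79 and 2.05 with IL10/2-Trikine. Its call against PBS was lost without PBS mouse 1, 2 or 5, mono-IL10 mouse 2, 3 or 4, or IL10/2-Trikine mouse 1, 2, 3 or 4 (adjusted p = 0.0539 to 0.13), and that against mono-IL10 without mono-IL10 mouse 1, 2 or 3 or IL10/2-Trikine mouse 3 or 4 (0.0629 to 0.0939).

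Whether the IL10/2-Trikine difference from PBS itself differed between cell types was tested within mice. With its sign kept, it was higher in T and NK cells than in macrophages for 7 of 57 members (1.01% of all genes). The log2 gap was 2.67 ± 0.40 for H1f5 (adjusted p = 4.99e-05), 1.70 ± 0.27 for H1f4 (0.00012), 1.93 for H2ac8 (0.00113), 1.64 for H4c4 (0.00194), 3.05 for H1f1 (0.0149), 2.92 for H3c3 (0.00731) and 1.98 for H2ac24 (0.0382). All of these but H2ac24 were called lower than PBS in macrophages, so their gaps include that fall. H4c4, H1f1, H3c3 and H2ac24 did not pass in T and NK cells alone. Against tumor cells the signed difference was higher for 2 members (0.493% of all genes), H1f5 (1.74 ± 0.37, adjusted p = 0.00771) and H1f4 (1.34 ± 0.25, adjusted p = 0.0023). H1f2 gave gaps of −0.24 ± 0.28 (adjusted p = 0.97) and −0.11 ± 0.28 (1), so no difference between cell types was detected for it. Without single mice the counts were 5 to 9 against macrophages and 2 throughout against tumor cells.

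The genes of 3 lists that serve histones were counted beside the members. Of 14 genes for histone mRNA transcription and 3′ processing, 3 were lower in macrophages with mono-IL10 than with PBS, Srrt, an RNA cap-complex partner (−0.28), Casp8ap2, a component of the histone locus body (−0.26), and Cpsf2, part of the cleavage machinery (−0.21), and 0 were higher, where 9.88% of all genes were lower. In tumor cells 3 were lower with IL10/2-Trikine than with PBS, where 9.22% of all genes were lower. Among them were Npat, the activator of histone gene transcription (−0.22), and Ncbp1, a subunit of the cap-binding complex (−0.24). In T and NK cells 0 of 13 passed by edgeR in any comparison, with 1, 2 and 0 at an unadjusted p under 0.05. The list medians in macrophages, −0.13 with mono-IL10 and −0.16 with IL10/2-Trikine against PBS, compare with −0.01 over all genes.

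Of 22 histone chaperones and importers, 13 were lower and 0 higher in macrophages with mono-IL10, led by Rbbp7 (−0.60), Nap1l1 (−0.46) and Mms22l (−0.77), with a median of −0.30, where 9.88% of all genes were lower and 10.3% higher. With IL10/2-Trikine against PBS, 7 were lower and 1 higher in macrophages (7.19% and 6.18% of all genes were). In tumor cells 5 were lower and 2 higher with IL10/2-Trikine than with PBS (9.22% and 7.48% of all genes), and 7 lower and 4 higher than with mono-IL10 (13.6% and 12.6%), among them Npm1, the nucleolar histone chaperone (−0.26 and −0.32), and Rbbp4 (0.23 and 0.30). In T and NK cells 2 were higher with IL10/2-Trikine than with PBS, Rbbp4, a histone-binding subunit of chromatin assembly factor 1 (0.70), and Supt16, a subunit of the FACT chaperone (0.65), where 2.15% of all genes were higher. Of 11 replication-independent variant genes, H3f3b, which encodes H3.3, was lower in T and NK cells with IL10/2-Trikine than with PBS (−0.34, 2.05% of all genes being lower) or mono-IL10 (−0.51, 2.42%). In macrophages with mono-IL10, 3 of 11 were higher and 4 lower (10.3% and 9.88% of all genes were), H3f3b being higher (0.31) while H2az1 and H2az2, which encode H2A.Z, were lower (−0.54 and −0.45). In tumor cells 6 of 10 were lower with IL10/2-Trikine than with mono-IL10 (13.6% of all genes), H3f3b by a log2 difference of −0.37, and 3 were higher with mono-IL10 than with PBS (3.23% of all genes), H3f3b by 0.22.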

How the data were processed

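The submitters deposited UMI counts per gene and cell, made by the authors with Cell Ranger count 9 (9.0.1 in the file header) at default parameters on GRCm39, as filtered barcodes, beside tables of annotated T and NK cells (at least 1000 genes and at most 10 percent mitochondrial UMIs, a percent computed by the authors, who used Seurat 5.1.0 with Harmony and named clusters by hand). The deposited counts were used unchanged.

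For the annotated T and NK cells the mouse was the one given in the authors' annotation. For all other cells it was called from hashtag counts with HTODemux (Seurat 5.3.0, quantile 0.99). A further 7858 cells of a group not analysed here were not used. Cells without a mouse were left out, 24.7 to 44.8% of T and NK cells, 2.43 to 9.74% of macrophages and 38.2 to 50.5% of tumor cells. Cells that passed the authors' limits were clustered without histone and cell cycle genes (2000 variable genes, 40 components, 60 k-means clusters) and named from markers. Of the cells outside the annotation, 31204 fell in clusters left unnamed and were not used (10471 PBS, 6742 mono-IL10 and 13991 IL10/2-Trikine). Some of these clusters were closest to tumor cells, such as cluster 0 (4143 cells, 74.7% from IL10/2-Trikine), so the classes do not hold all such cells. Cells outside the annotation that HTODemux classed as hashtag doublets were dropped before clustering, and no other doublet caller was run. Counts were summed per mouse with at least 10 cells (124258 to 995020 UMIs in T and NK cells, 1122694 to 13779755 in macrophages, 10303665 to 51220815 in tumor cells). Genes with at least 30 UMIs were tested in edgeR 4.0.16 (TMM, quasi-likelihood, 3 groups in 1 fit, threshold 0.05), with mouse as a block between cell types, after a check on simulated counts. DESeq2 1.42.0, other factors, filters, thinned sums (each mouse's sum drawn down to the lowest total), clustering and left-out mice were alternatives. Members and lists were chosen with earlier results of these data known. Named were all linker genes, each member past the threshold, and leading core members. The 2 contrasts with PBS share its mice, and intervals and floors cover counting error only. Counts at an unadjusted p under 0.05 have no share of all genes beside them, since none was counted at that level.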

Additional observations from a re-analysis of the deposited data

Results flagged for a closer look

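In 15 of 135 groups of 5 mice, 1 mouse stood apart from the rest by Dixon's gap criterion, which chance meets in about 1 of 20 groups. In T and NK cells these were H1f2 in IL10/2-Trikine mouse 4 (34 CPM, others 64.4 to 75.1), H1f5 in PBS mouse 3 (40.9, others 77.2 to 92), H2ac4 in mono-IL10 mouse 3 (19.5, others 46.7 to 54.3) and H4c4 in IL10/2-Trikine mouse 1 (225, others 101 to 129).

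PBS mouse 4 gave 4 of the macrophage values, H1f4 at 25 CPM (others 46.4 to 51.1), H2ac4 at 8.39 (14.4 to 16.5), H2ac8 at 22 (42.9 to 49.4) and H3c3 at 2.80 (4.61 to 5.25). In mono-IL10 macrophages H1f2 stood at 338 CPM in mouse 5 (others 240 to 268), and H1f4 and H4c4 at 26.6 (21.4 to 22.9) and 27.1 (15.3 to 18.5) in mouse 1. In IL10/2-Trikine macrophages H2bc7 stood at 0.252 CPM in mouse 2 and 0 in the others, and H3c15 at 0.891 in mouse 3 (others 2.16 to 2.38), each on 1 UMI. In tumor cells mono-IL10 mouse 3 had H1f2 at 82 CPM (others 64.9 to 69.8) and H1f3 at 30.6 (15.3 to 19.4).

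The signed log2 difference of IL10/2-Trikine from PBS was higher in T and NK cells than in macrophages, by the edgeR test of that gap, for 7 members. These were H1f1 (3.05), H3c3 (2.92), H1f5 (2.67), H2ac24 (1.98), H2ac8 (1.93), H1f4 (1.70) and H4c4 (1.64), and all but H2ac24 were called lower in macrophages. It was higher than in tumor cells for H1f5 (1.74) and H1f4 (1.34).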

How the results depend on the processing

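No paired analysis was possible because the mice of different groups are different animals and the labels give no number that pairs them. Each number of members past the threshold is given beside its main value, and the cause of a change was not tested. In T and NK cells the 3, 1 and 2 calls for IL10/2-Trikine against PBS, IL10/2-Trikine against mono-IL10 and mono-IL10 against PBS became 5, 2 and 4 with no filter on low counts and 0 each in cells low in cycle transcripts. With thinned sums the last 2 became 0 and 1, and without cells holding tumor markers mono-IL10 against PBS gave 1. Leaving out single mice gave 3 to 5, 0 to 2 and 0 to 2. The 0 calls in NK cells became 1 with no filter for IL10/2-Trikine against mono-IL10, and 0 to 1 without single mice there and for mono-IL10 against PBS. In cycling clusters the 0 calls against PBS became 1 with DESeq2 and 2 with no filter for IL10/2-Trikine, 2 with no filter and 1 without tumor markers for mono-IL10, and 0 to 1 each without single mice.

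In macrophages the 9 calls for IL10/2-Trikine against PBS, all lower, became 5 to 12 without single mice. They became 1 (H4c8, lower) in cells with at least 2000 genes and 2 (H3c15 and H2bc4, both higher) in cells low in cycle transcripts, none of these among the 9. In the same 2 subsets the 4 against mono-IL10 became 14 and 2. The 20 for mono-IL10 against PBS became 12 with thinned sums and 5, all higher, in cells low in cycle transcripts. In tumor cells the 2 for IL10/2-Trikine against PBS became 1 with no filter, with thinned sums and with at least 2000 genes. The 1 against mono-IL10 became 3 with DESeq2 and with another clustering and 2 with RLE factors, edgeR's own filter or no filter. The 1 for mono-IL10 against PBS became 2 under these 5 and with at least 2000 genes, and 0 in cells low in cycle transcripts. Single mice left out gave 1 to 3, 0 to 3 and 1 to 2.

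The sign turned for H1f4 in T and NK cells low in cycle transcripts, IL10/2-Trikine against PBS (−0.01), and in macrophages for the same comparison with at least 2000 genes (H1f4 0.07) and low in cycle transcripts (H1f4 0.03, H2ac20 0.11, H2ac8 0.27), and for mono-IL10 against PBS low in cycle transcripts (H1f4 0.24, H2ac20 0.49, H2bc11 0.73). In T cells outside the cycling clusters TMM put the median of all genes at −0.14 and −0.16 for IL10/2-Trikine against PBS and mono-IL10.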
